A study of Mus musculus with 8 samples.

Results

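Genes for voltage-gated and related ion channels and for ionotropic glutamate receptors were compared between neural stem cells of the 2 genotypes. The members were the protein-coding genes whose symbol starts with Kcn, or with Cacna, Cacnb, Cacng, Gria, Grik or Grin and a digit, or is Scn with a number and a or b. The table held 123 of them among 14733 protein-coding genes and 15538 genes in all: 73 potassium, 24 calcium, 10 sodium and 16 glutamate receptor genes. Another 27 genes that the rule selects in the annotation were not analysed here. Of the 123 genes, 23 had a mean under 10 normalised reads over the 8 libraries. The cells were primary embryonic neural stem cells of mouse brain, grown as neurospheres, and RNA was selected by its poly(A) tail. The 4 libraries of one group were labelled wild type, and the 4 of the other Phf23-/-, which is homozygous loss of a gene for a PHD-finger protein of chromatin. The labels give neither the kind of deletion nor the age, strain or number of embryos, and name no agent.

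Potassium channels open to let potassium leave the cell, which holds the membrane at a negative potential and ends action potentials, while voltage-gated sodium and calcium channels let in the current that starts an action potential and the calcium that triggers transmitter release. A channel is built from pore-forming alpha subunits, and accessory subunits set its trafficking and gating. Glutamate receptors of the AMPA, kainate and NMDA types are cation channels that glutamate opens. Full excitability is a property of neurons, but progenitors and glia of the developing brain are known to express many of the same genes, such as the glial potassium channel gene Kcnj10 and AMPA receptor genes of oligodendrocyte precursors.

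Normalised reads are gene read counts divided by the authors' size factor of each library. Recovered depth was 15647304 to 18241215 reads in the wild-type libraries and 18099114 to 19462516 in the others. Changes are log2 fold changes from wild type to labelled knockout on the log2(value + 1) scale, given ± SE. Calls are those of limma-trend with a false discovery rate (FDR) under 0.05, adjusted over all 15538 genes. Nothing in the labels says that the 4 libraries of a group came from separate cultures, so the FDR measures the spread between these libraries. Phf23 was 1.86-fold higher in the libraries labelled knockout than in wild type (798 ± 85.4 and 1481 ± 108 normalised reads, SD, n = 4 each), so the targeted gene went against its label and every direction is between libraries as labelled. Long transcripts were lower and short ones higher there: the slope of expression on transcript length was 0.0615 to 0.263 log2 units per doubling of length in wild type and -0.308 to 0.0397 in labelled knockout (two-sided exact permutation p = 0.0286, the smallest that 4 against 4 allows). Wild type 1 and 2 and labelled knockout 1 and 2 had the steepest slopes. Stem cell markers were abundant, with 12 of 12 in the table and a summed level of 139616 to 149782 normalised reads in wild type and 161646 to 204571 in labelled knockout, and 5 of them rose and 0 fell. The 12 neuronal markers summed to 23278 to 28070 in wild type and 20071 to 21726.5 in labelled knockout. Map2 made up the largest part of this sum and fell from 17464 ± 2504 to 10077 ± 1236. Gap43 rose from 6493 ± 285 to 9281 ± 1329, Rbfox3 also rose, and 9 of the 12 were not called, so the sum does not stand for the whole list. Of 11 oligodendrocyte lineage markers, 6 rose and 1 fell, and of 7 astrocyte markers 3 rose and 3 fell. Over all genes, 29.6% were called, 14.8% in each direction. Of 9 microglial markers only P2ry12 was in the table. The part of these shifts in cell markers in the results that follow was not tested, and in bulk RNA fewer cells of a type cannot be told apart from less RNA per cell.

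Of the 123 channel and receptor genes, 11 rose and 29 fell in the libraries labelled knockout, and 83 did not pass the test. That is 32.5% called, against 29.6% of all genes. By direction, 8.94% of the members rose and 23.6% fell, against 14.8% of all genes in each direction. The median log2 fold change was -0.18 for the members and 0.00055 for all genes. Genotypes did not overlap in 33 of the 123 genes (26.8%), near the 27.7% of all genes. Among classes, 7 potassium genes rose and 11 fell of 73 (median log2 fold change -0.12), and 1 calcium gene rose and 9 fell of 24 (median -0.09). Of 10 sodium channel genes 2 rose and 3 fell (median -0.53), and of 16 glutamate receptor genes 1 rose and 6 fell (median -0.23). These class medians moved with the fit: with the length and GC trend subtracted they were -0.043 for potassium, -0.10 for calcium, -0.18 for sodium and -0.18 for glutamate receptor genes. With a covariate for the length slope they were -0.013, -0.16, 0.0039 and -0.0054. The count of 40 rested on several libraries: leaving out labelled knockout 1 left 17 members called (12.1% of all genes), leaving out wild type 2 left 21 (13.6%), leaving out wild type 1 left 22 (14.1%) and leaving out labelled knockout 3 left 26 (22.8%). Leaving out labelled knockout 4 gave 47 (37.7%). As deposited and also without every library in turn, 17 of the 123 genes were called, against 1739 of all 15538. The 17 were 10 potassium, 2 calcium, 2 sodium and 3 glutamate receptor genes. With libraries scaled by their total alone, the median of all genes shifted to -0.06, 1827 genes were called higher and 2757 lower (11.8% and 17.7%) in place of 2301 and 2292, and of the members 7 were called higher and 31 lower.

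**Figure D1:**
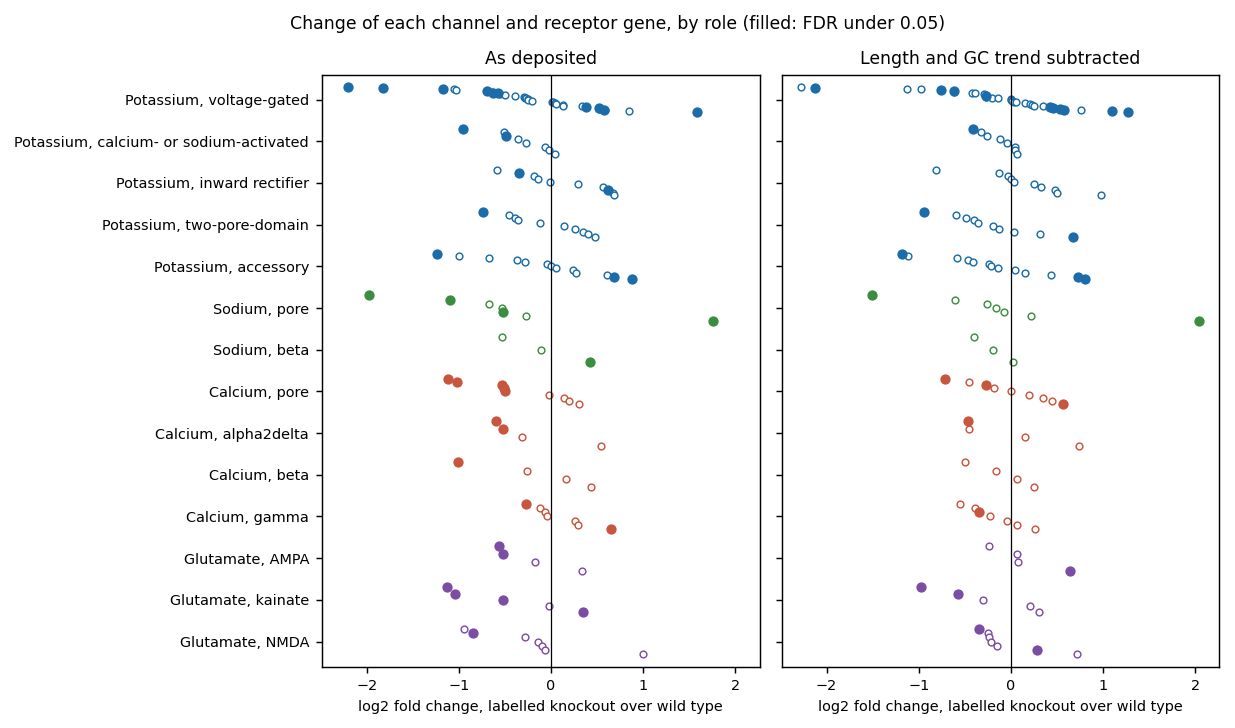
Log2 fold change (horizontal axis, labelled knockout over wild type) of each of the 123 genes, 1 point per gene, in rows by role; filled points have an FDR under 0.05. On the left, 11 filled points lie to the right of 0 and 29 to the left; on the right, after subtraction of the trend with transcript length and GC content, 13 lie to the right and 15 to the left.

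These genes have long transcripts, and transcript length moved with the calls. The median longest transcript was 4276 nt for the members and 3318 nt for all genes, and 74.8% of the members lay above the median gene. The 29 genes that fell had a median of 7338 nt, the 11 that rose 3667 nt and the 83 others 4084 nt. Across the 123 genes, which are not independent replicates, Spearman's rho of log2 fold change with length was -0.396, against -0.495 over 15531 genes. When each library was first cleared of a smooth trend with length and GC content, 13 members were called higher and 15 lower, 22.8% of the 123 against 18.4% of all genes, and the median was -0.13. The lower calls were then 12.2% of the members, against 7.86% of all genes, and the higher calls 10.6%, against 10.5%. Of the 40 genes called as deposited, 20 kept call and direction after the subtraction, which is 50% of the 40 and 71.4% of the 28 called there. Over all genes, 1987 kept call and direction, of 4593 called as deposited and 2860 called after subtraction, so the members were near the shares of all genes. Every wild-type slope was above every labelled-knockout one, so slope and genotype are confounded. Neither the subtraction nor a slope covariate can tell an effect of length from one of genotype, and both can remove part of a genotype difference. With a covariate for each library's length slope, 4 members were called higher and 0 lower, where 1.09% of all genes were called (0.656% higher and 0.438% lower). Of the 4, Kcnc4 was also called as deposited. The others were Kcna2, Gria4 and Grik3 (log2 0.57, 0.78 and 0.80, FDR = 0.0346, 0.0139 and 0.0288), Grik3 being named because of this call. When the 4 libraries of steepest slope were left out, 21 members were called, 17.1% of the 123 against 9.15% of all genes. Of the 40 genes called as deposited, 15 stayed called there, and the like count over all genes was not made. Among the 15 were Cacna1d, Cacna1e, Grik1, Grik2, Grik4, Grin2a, Kcna3, Kcnc4, Kcnip1, Kcnk1, Kcnma1, Kcnq3, Scn7a and Scn11a.

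**Figure D2:**
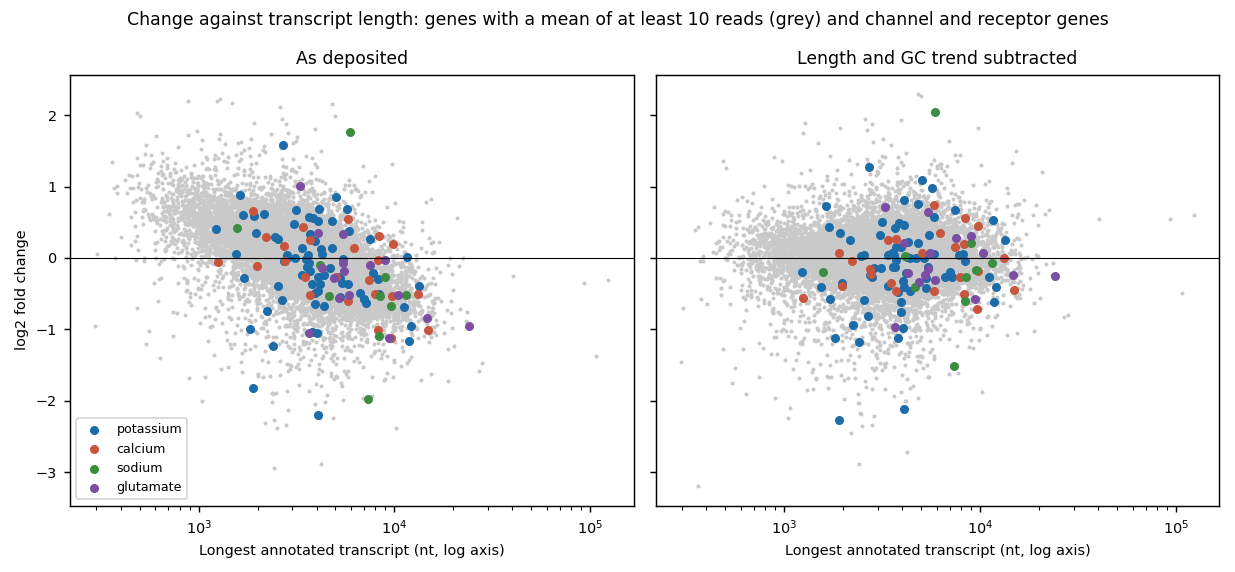
Log2 fold change (vertical axis) against the length of the longest annotated transcript (horizontal log axis, nt), for genes averaging 10 or more normalised reads (grey) and the 123 channel and receptor genes (coloured by class). As deposited, on the left, the cloud slopes down with length; with the trend subtracted, on the right, it is level, and Scn11a at the top and Scn7a at the bottom remain apart from the other sodium channel genes.

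Levels can be compared between genes per kb of transcript, taking the longest annotated transcript as its length. The highest wild-type levels were those of Kcnip3 (1135 ± 78.3 normalised reads per kb, SD, n = 4), Cacng7 (1129 ± 82.8) and Kcnc1 (1089.6 ± 94.1), which lay within each other's SD. Kcnip3 encodes a calcium-binding protein of voltage-gated potassium channels that also acts as a transcriptional repressor, Cacng7 a transmembrane AMPA receptor regulatory protein and Kcnc1 a fast voltage-gated potassium channel. Below them lay, among others, the AMPA receptor gene Gria2 (699 ± 129), Kcnd3 (686 ± 85.1), Cacng4 (615 ± 36.0) and the kainate receptor gene Grik5 (584 ± 85.6). Kcnd3, Cacng4 and Grik5 each lay within the SD of the gene named before it. Pore-forming sodium channel genes were far lower: Scn8a, the highest, had 62.4 ± 10.5 reads per kb in wild type. The same 3 genes led each class when the summed length of all annotated exons was used instead.

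**Figure D3:**
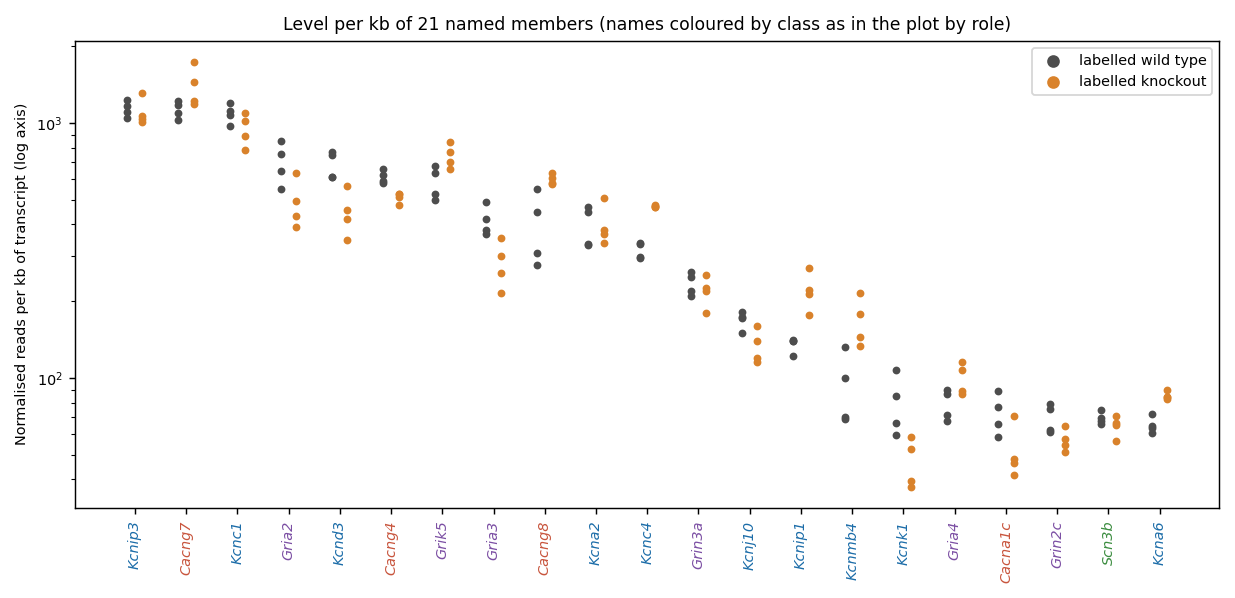
Normalised reads per kb of transcript (vertical log axis) in each of the 4 wild-type libraries (grey) and the 4 labelled knockout (orange) for 21 of the members named in the text, in order of wild-type level. Kcnip3, Cacng7 and Kcnc1 lead at about the same level, and the Kcnc4 libraries separate by label.

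Of the 3 potassium genes of highest level, Kcnd3 fell and the others did not pass the test. In library order 1 to 4, Kcnc1 had 8670.5, 7544, 8312 and 9294 normalised reads among the wild-type libraries and 6886, 6089, 7897 and 8479.5 among those labelled knockout, and the groups overlapped (log2 -0.21 ± 0.119, FDR = 0.195). Kcnip3 went from 3101 ± 214 to 3011 ± 374 (log2 -0.05 ± 0.106, FDR = 0.764). Kcnd3, which encodes a channel of the transient A-type current, fell: it had 5511, 5382, 4384 and 4404 in wild type and 3019.9, 2483, 3277 and 4046 in labelled knockout (log2 -0.63 ± 0.143, FDR = 0.00988). Every labelled-knockout library was below every wild-type one for Kcnd3, with labelled knockout 4 the closest, and the change was smaller with the trend subtracted (log2 -0.27, FDR = 0.0203).

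Among the 32 genes of voltage-gated potassium channel subunits, 4 rose and 6 fell. Kcnc4 (ENSMUSG00000027895, chromosome 3, 107438303 to 107459552, minus strand, mm10), a relative of Kcnc1, had the lowest FDR of the members that rose. It had 1233, 1096, 1083 and 1241 normalised reads in wild type and 1727, 1717, 1723 and 1741 in labelled knockout, 1.48-fold of the wild-type mean (log2 0.57 ± 0.0913, FDR = 0.00282). The labelled-knockout libraries lay within a narrow band above every wild-type library, and the gene stayed called with the trend subtracted (log2 0.43, FDR = 0.0049), with the slope covariate (log2 0.60, FDR = 0.0238) and without each library in turn. Kcns1 (ENSMUSG00000040164, chromosome 2, 164163619 to 164171113, minus strand) encodes a subunit that forms no channel alone but modifies other voltage-gated channels. It rose from 4.91, 5.76, 11.3 and 8.72 to 24.1, 26.3, 18.6 and 27.4 (log2 1.58 ± 0.331, FDR = 0.00759; trend subtracted log2 1.27, FDR = 0.0144), from few reads but with no overlap. Kcna6, of the Shaker family, had 372, 354, 422 and 379 and 481, 489.6, 492 and 522 (log2 0.38 ± 0.104, FDR = 0.0189; trend subtracted log2 0.57, FDR = 0.00185), and Kcng1, another silent subunit gene, 193, 162, 226 and 294 and 269, 335, 333 and 292 (log2 0.51 ± 0.172, FDR = 0.0394; trend subtracted log2 0.46, FDR = 0.0323). Kcna6 libraries did not overlap, whereas 1 wild-type Kcng1 value, in wild type 4, lay within the other group. An annotated antisense gene, not in the table, shares 39.6% of the Kcna6 exon bases, and whether its reads were counted as Kcna6 depends on the use of strand, which is not known. The calls ended for Kcna6 without wild type 1 or 2 or labelled knockout 1 (FDR = 0.0503 to 0.066) and for Kcng1 without wild type 1, 2 or 3 or labelled knockout 1, 2 or 3 (FDR = 0.0595 to 0.124).

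The falls, with that of Kcnd3, included genes of the muscarinic-sensitive M current. Kcnq3 (ENSMUSG00000056258, chromosome 15, 65986387 to 66286642, minus strand), a subunit of the M channel, which opens near rest and damps firing, had 267, 223, 176 and 178 normalised reads in wild type and 80.9, 100.03, 83.7 and 105 in labelled knockout. It was 2.28-fold lower without overlap (log2 -1.17 ± 0.171, FDR = 0.00183) and stayed called with the trend subtracted (log2 -0.62, FDR = 0.0101). Its relative Kcnq5 fell from 193 ± 16.3 to 129 ± 11.9 (log2 -0.57 ± 0.136, FDR = 0.0114), and lost the call with the trend subtracted (log2 -0.20, FDR = 0.3). Kcnh5, of the ether-a-go-go family, had 17.7, 9.60, 9.0 and 9.69 in wild type and 0, 3.16, 2.79 and 1.96 in labelled knockout (log2 -2.21 ± 0.522, FDR = 0.0115; trend subtracted log2 -2.12, FDR = 0.0136), a fall at very few reads. Kcna3, a Shaker-family gene, fell from 125, 85.4, 117 and 134 to 16.4, 12.6, 47.5 and 93.9 (log2 -1.83 ± 0.486, FDR = 0.0168). Labelled knockout 1 and 2 were lowest and labelled knockout 4 lay within the wild-type range. Its call ended with the trend subtracted (log2 -2.27, FDR = 0.0551) and without wild type 1 or labelled knockout 1 (FDR = 0.0517 to 0.0624).

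With the trend subtracted, 6 voltage-gated genes were called higher and 4 lower, and Kcna2 and Kcnc2 were the higher ones not called as deposited. Kcna2, the highest Shaker-family gene per kb, had 5423, 5200.0, 3874 and 3842 normalised reads in wild type and 4264, 3925, 4421 and 5859 in labelled knockout (log2 0.01 ± 0.15, FDR = 0.963), and its transcript is long (11582 nt). The groups overlapped as deposited, and after subtraction it was higher in labelled knockout (log2 0.54, FDR = 0.000267). Kcnc2, with 26.5, 23.0, 13.5 and 10.7 and 29.8, 30.5, 31.6 and 36.2, was called higher after subtraction (log2 1.10, FDR = 0.0163, against log2 0.85 ± 0.306, FDR = 0.0523 as deposited) and also as deposited without wild type 1. The other 19 genes of this role were called in neither fit.

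**Figure D4:**
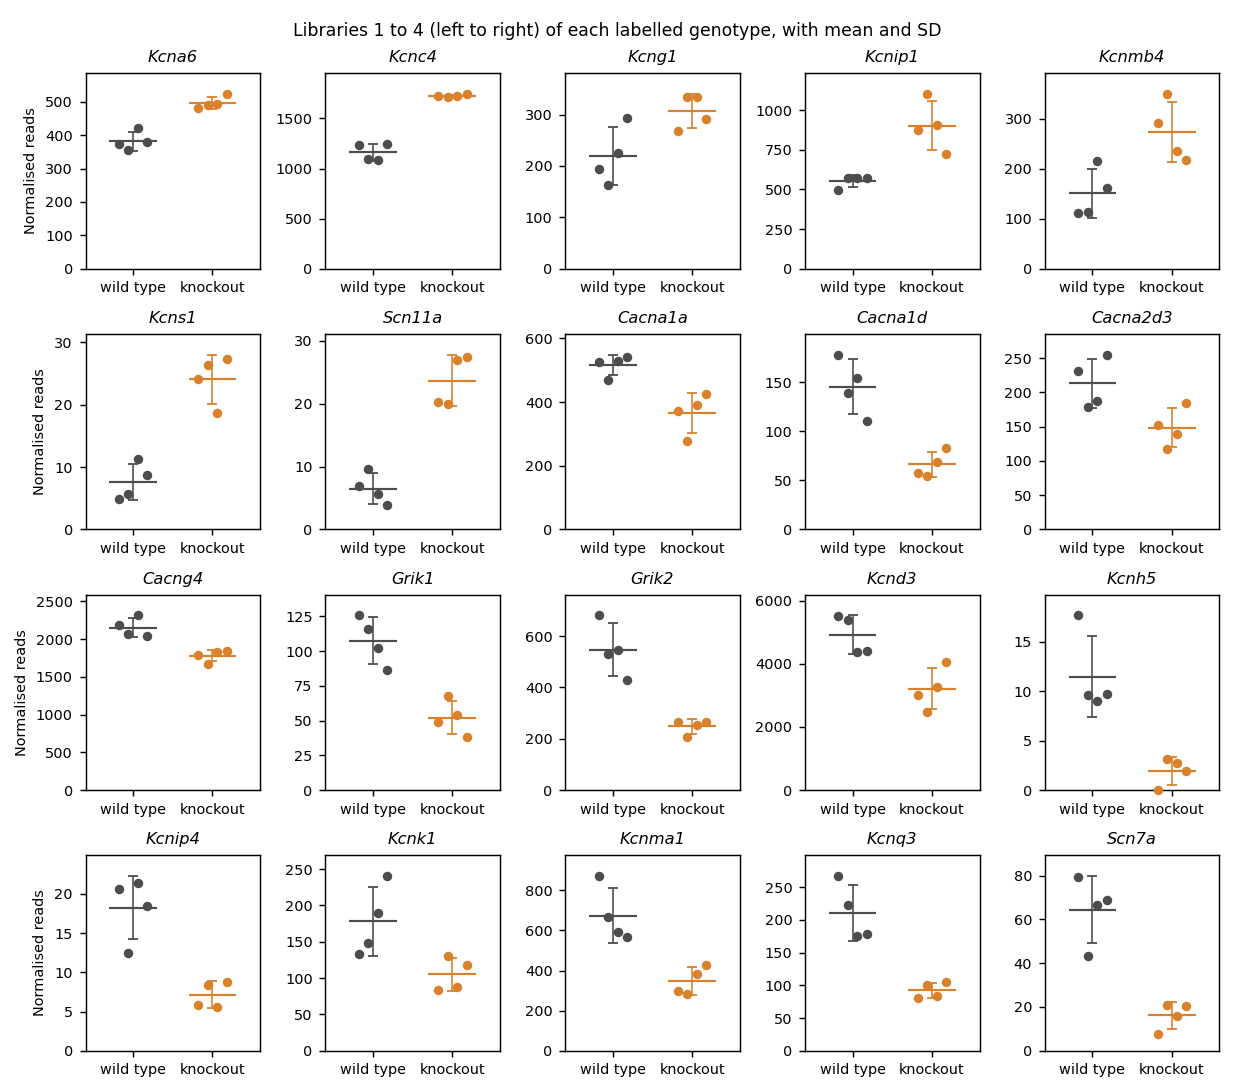
Normalised reads (vertical axes from 0) of the 20 members called in the same direction as deposited and with the trend subtracted, in libraries 1 to 4 of each labelled genotype (points, left to right) with mean and SD. The first 7 panels are the genes that rose and the other 13 those that fell; in Kcng1 and Cacna2d3 the groups overlap.

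Of 8 calcium- or sodium-activated potassium channel genes, 2 fell. Kcnma1 (ENSMUSG00000063142, chromosome 14, 23289431 to 24014491, minus strand), the pore of the large-conductance channel that both calcium and depolarisation open, had 871, 666, 592 and 565 normalised reads in wild type and 297, 281, 381 and 429.5 in labelled knockout. All 4 labelled-knockout values were below all 4 wild-type values, 1.94-fold lower in the mean (log2 -0.96 ± 0.168, FDR = 0.00426), and the gene was called at a smaller size with the trend subtracted (log2 -0.41, FDR = 0.00837). In the opposite direction, the accessory gene Kcnmb4, whose product slows that channel in neurons, rose from 112, 114, 215 and 162 to 291, 349, 235 and 216 (log2 0.88 ± 0.218, FDR = 0.0133; trend subtracted log2 0.73, FDR = 0.0171). Kcnmb4 shares 20.8% of its exon bases with the antisense gene Kcnmb4os2, which has a row of its own with 1121 reads over the 8 libraries. How reads on the shared bases were assigned is not known, so the Kcnmb4 value is uncertain to that extent. Kcnt1, a sodium-activated channel gene, fell from 176 ± 14.9 to 126 ± 19.5 (log2 -0.49 ± 0.148, FDR = 0.028), a call that ended with the trend subtracted (log2 -0.26, FDR = 0.149) and without wild type 1, 2 or 4 or labelled knockout 1, 2 or 3 (FDR = 0.0544 to 0.0792). The 3 small-conductance channel genes Kcnn1, Kcnn2 and Kcnn3 were not called (log2 -0.27, -0.07 and -0.51), though Kcnn3 was without wild type 3 or labelled knockout 4.

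Inward rectifiers and leak channels hold the resting potential. Of 10 inward rectifier genes 1 rose and 1 fell, and none of them was called with the trend subtracted, where the lowest FDR was that of Kcnj14 (0.0907). Kcnj10, the main glial inward rectifier, went from 913 ± 70.9 to 722 ± 109.8 (log2 -0.35 ± 0.122, FDR = 0.0481; trend subtracted log2 -0.13, FDR = 0.295), and Kcnj16, higher per kb, from 1548 ± 144 to 1364 ± 123 without a call (log2 -0.18 ± 0.107, FDR = 0.214). Kcnj4 rose from 64.6 ± 17.1 to 98.6 ± 17.8 (log2 0.62 ± 0.212, FDR = 0.0435; trend subtracted log2 0.25, FDR = 0.34). The call ended for Kcnj10 without wild type 1, 2 or 3 or labelled knockout 1, 2 or 3 (FDR = 0.0743 to 0.145) and for Kcnj4 without wild type 1, 2 or 3 or labelled knockout 1, 2 or 3 (FDR = 0.0531 to 0.122). Of 10 genes of the two-pore-domain family, whose channels carry background leak current, Kcnk1 fell. It had 133, 149, 189 and 240.3 in wild type and 83.8, 131, 88.4 and 117 in labelled knockout (log2 -0.74 ± 0.209, FDR = 0.0207), and its change was no smaller with the trend subtracted (log2 -0.94, FDR = 0.00343). Its transcript has 2235 nt. The Kcnk1 call ended without labelled knockout 1 or 3 (FDR = 0.0548 to 0.0722). Kcnk10 was called higher with the trend subtracted (log2 0.67, FDR = 0.00937, against log2 0.26 ± 0.18, FDR = 0.299), and Kcnk2, the highest of the family per kb, went from 789.7 ± 56.2 to 723 ± 22.9 (log2 -0.12 ± 0.097, FDR = 0.353).

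Kcnip proteins are calcium sensors that bind channels of the Kcnd family, and of their 4 genes 1 rose and 1 fell. Kcnip1 (ENSMUSG00000053519, chromosome 11, 33629339 to 33993152, minus strand) rose: it had 498, 575, 574 and 574 normalised reads in wild type and 875, 1100.4, 904 and 724 in labelled knockout, 1.62-fold of wild type without overlap (log2 0.68 ± 0.129, FDR = 0.00553; trend subtracted log2 0.81, FDR = 0.00145). Kcnip4 fell from 20.6, 12.5, 21.4 and 18.4 to 5.78, 8.42, 5.58 and 8.81 (log2 -1.23 ± 0.329, FDR = 0.0169; trend subtracted log2 -1.18, FDR = 0.0278), and its call ended without wild type 1 or labelled knockout 1 (FDR = 0.0535 to 0.0556). Of the Kcnip4 exon bases, 4.63% overlap 5730480H06Rik on the other strand. That gene had 1607 reads over all libraries, against 101 for Kcnip4, and how reads on the shared bases were assigned is not known. Kcnip2 and Kcnip3 were not called (log2 0.003 and -0.05). Of the Kcnd genes themselves, Kcnd3 fell as above, and Kcnd1 and Kcnd2 were not called (log2 -0.55 and -0.27), though Kcnd2 was without labelled knockout 4. In all, 2 of the 13 accessory genes rose and 1 fell.

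Scn11a had the largest rise of all members called, and Scn7a the largest fall after that of Kcnh5. Scn7a (ENSMUSG00000034810, chromosome 2, 66673425 to 66784914, minus strand) encodes an atypical channel that senses sodium concentration in glia. It had 79.5, 43.2, 66.4 and 68.8 normalised reads in wild type and 7.70, 21.1, 15.8 and 20.5 in labelled knockout, 3.96-fold lower (log2 -1.98 ± 0.323, FDR = 0.00311, 95% interval -2.68 to -1.28). Scn11a (ENSMUSG00000034115, chromosome 9, 119753759 to 119825456, minus strand), a channel gene best known from pain-sensing neurons, had 6.87, 9.60, 5.63 and 3.88 and 20.2, 20.0, 27.0 and 27.4, 3.64-fold of wild type (log2 1.76 ± 0.335, FDR = 0.00578, 95% interval 1.03 to 2.49). The groups did not overlap for either gene, both stayed called with the trend subtracted (Scn7a log2 -1.51, FDR = 0.00443; Scn11a log2 2.05, FDR = 0.000986) and without each library in turn, and both are expressed at a low level.

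The calls of Scn1a and Scn8a ended with the trend subtracted. Scn1a fell from 39.4 ± 15.2 to 17.8 ± 7.79 (log2 -1.09 ± 0.349, FDR = 0.0334; trend subtracted log2 -0.61, FDR = 0.147), and Scn8a, the leading pore gene of the class, fell from 865, 745, 660.4 and 585 to 410.1, 455, 528 and 596 (log2 -0.52 ± 0.148, FDR = 0.0216; trend subtracted log2 -0.07, FDR = 0.664). The calls ended for Scn1a without wild type 1, 2 or 3 or labelled knockout 1, 2 or 3 (FDR = 0.0594 to 0.11) and for Scn8a without wild type 1 or 2 or labelled knockout 1 (FDR = 0.0662 to 0.0765). Scn2a and Scn3a were not called (log2 -0.27 and -0.67), although Scn3a was without labelled knockout 4, nor was Scn3b, which encodes a beta subunit and went from 289 ± 15.5 to 269 ± 25.2.

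Promoter sequence is shown for 2 sodium and 2 potassium channel genes that moved in opposite directions within their class, chosen because each holds an E-box match. Each run is the 250 bases before the RefSeq start site (GRCm38.p6, minus strand except Kcnd3 on the plus strand), and capitals mark matches to the E-box word CAGCTG on either strand, the kind of site that E proteins bind. Tcf4, an E protein named in the title of the series, went from 12769 ± 1815 to 7256 ± 1311 normalised reads (log2 -0.82 ± 0.14, FDR = 0.00369). Tcf4 was highest in wild type 1 and 2 and lowest in labelled knockout 1 and 2, the libraries of steepest length slope. Its change with the trend subtracted is not given here. The windows are chr2:66784911-66785160, chr9:119825457-119825706, chr3:105451640-105451889 and chr2:164171114-164171363.
Scn7a (fell): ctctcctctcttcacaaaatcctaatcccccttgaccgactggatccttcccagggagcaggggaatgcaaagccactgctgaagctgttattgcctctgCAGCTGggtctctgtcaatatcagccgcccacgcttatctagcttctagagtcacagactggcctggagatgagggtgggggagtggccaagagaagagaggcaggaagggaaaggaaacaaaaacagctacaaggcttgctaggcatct
Scn11a (rose): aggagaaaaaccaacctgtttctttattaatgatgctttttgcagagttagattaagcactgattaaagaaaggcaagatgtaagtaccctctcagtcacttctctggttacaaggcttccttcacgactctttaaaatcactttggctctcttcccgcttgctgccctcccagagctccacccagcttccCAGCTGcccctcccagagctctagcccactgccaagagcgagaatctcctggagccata
Kcnd3 (fell): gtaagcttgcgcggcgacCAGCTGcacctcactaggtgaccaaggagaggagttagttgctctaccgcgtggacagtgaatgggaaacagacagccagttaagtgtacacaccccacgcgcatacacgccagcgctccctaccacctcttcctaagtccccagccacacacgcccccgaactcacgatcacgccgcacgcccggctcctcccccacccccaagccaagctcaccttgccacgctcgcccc
Kcns1 (rose): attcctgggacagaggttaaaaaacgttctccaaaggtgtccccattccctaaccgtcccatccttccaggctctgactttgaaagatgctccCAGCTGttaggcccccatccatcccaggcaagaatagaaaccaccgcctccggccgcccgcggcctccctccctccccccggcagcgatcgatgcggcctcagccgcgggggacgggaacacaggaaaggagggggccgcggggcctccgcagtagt

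RefSeq promoters were found for 88 of the 123 genes, 121 windows in all. Of these, 40.5% held CAGCTG or the related word CAGGTG, counted on both strands, against 27.7% of all 32851 windows of that length. Counted by gene and not by window, 4 of 9 genes that rose and 9 of 21 that fell had one. No share by gene is given for all genes, so these counts cannot be set against the shares of windows. The looser word CANNTG, which contains both, was in 65.3% of the member windows and 66.2% of all. A word from the site of the neuronal repressor REST, TTCAGCACC, searched on both strands, was found in 1 member window (Kcnh6), or 0.826%, against 0.301% of all. Member windows had a median of 9 CG dinucleotides, against 6 in all, and a median GC content of 58.8%, against 52.4%. The GC-rich word GGGCGG was also more frequent in them, in 43.8% against 32.7% of all windows. The part of base composition in the shares of these words was not tested. A match is a description of these letters and not a site of binding.

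Among the 9 pore genes of voltage-gated calcium channels 5 fell. Cacna1d (ENSMUSG00000015968, chromosome 14, 30039939 to 30491455, minus strand), an L-type channel that opens at low voltage, had 178, 139, 154 and 110.4 normalised reads in wild type and 57.8, 54.8, 68.9 and 83.2 in labelled knockout, 2.2-fold lower without overlap (log2 -1.12 ± 0.194, FDR = 0.00396; trend subtracted log2 -0.72, FDR = 0.00634). Cacna1a, the P/Q-type pore of presynaptic terminals, had 525, 469, 529.9 and 541 and 372, 279, 392 and 425, again without overlap (log2 -0.51 ± 0.136, FDR = 0.0171; trend subtracted log2 -0.27, FDR = 0.0489). Both kept their calls without each library in turn. Cacna1b of N-type channels fell from 339 ± 29.4 to 238 ± 61.9 (log2 -0.54 ± 0.162, FDR = 0.027), the L-type gene Cacna1c from 955 ± 172 to 681 ± 171 (log2 -0.50 ± 0.17, FDR = 0.0421) and the R-type gene Cacna1e from 32.5 ± 11.2 to 15.6 ± 6.0 (log2 -1.02 ± 0.346, FDR = 0.0428). With the trend subtracted these 3 were not called (log2 -0.18, 0.00017 and -0.45, FDR = 0.293, 0.999 and 0.458). The calls also ended for Cacna1b without wild type 1 or 2 or labelled knockout 1, 2 or 3 (FDR = 0.0628 to 0.0804), for Cacna1c without wild type 1, 2 or 4 or labelled knockout 1, 2 or 3 (FDR = 0.0516 to 0.128) and for Cacna1e without wild type 2, 3 or 4 or labelled knockout 1, 3 or 4 (FDR = 0.0635 to 0.111).

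T-type pore genes, whose channels open near rest, did not fall. Cacna1h, the highest calcium pore gene per kb (301 ± 26.8 reads per kb in wild type), had 2574, 2269, 2326 and 2743 normalised reads in wild type and 2156, 1774, 2839.7 and 3221 in labelled knockout (log2 -0.02 ± 0.162, FDR = 0.932), with overlapping groups. Cacna1g was called higher with the trend subtracted (log2 0.56, FDR = 0.0316, against log2 0.30 ± 0.205, FDR = 0.282), and Cacna1i was called in neither fit.

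Of the auxiliary calcium channel genes, 2 of 4 alpha2delta genes and 1 of 4 beta genes fell. The alpha2delta protein sits outside the membrane and raises the number of channels at the surface. Cacna2d3 had 232, 179, 188 and 255 normalised reads in wild type and 152, 118, 139.6 and 185 in labelled knockout (log2 -0.52 ± 0.17, FDR = 0.0364; trend subtracted log2 -0.47, FDR = 0.0428), with labelled knockout 4 inside the wild-type range. Cacna2d2 fell from 90.5 ± 5.29 to 59.9 ± 9.49 (log2 -0.60 ± 0.171, FDR = 0.022; trend subtracted log2 -0.46, FDR = 0.055), and Cacna2d1, higher per kb, went from 1680.0 ± 277 to 1343 ± 159.6 (log2 -0.32 ± 0.13, FDR = 0.0845), a change called only without wild type 4 or labelled knockout 4. Cacnb4 fell from 63.7 ± 17.2 to 31.8 ± 10.2 (log2 -1.01 ± 0.281, FDR = 0.0202; trend subtracted log2 -0.50, FDR = 0.158). Those calls ended for Cacna2d3 without wild type 1, 2 or 4 or labelled knockout 1, 2 or 3 (FDR = 0.0501 to 0.0991), for Cacna2d2 without wild type 1 or 2 or labelled knockout 1 or 2 (FDR = 0.0514 to 0.0674) and for Cacnb4 without wild type 1 or 2 or labelled knockout 1 (FDR = 0.0576 to 0.07). Cacnb3, the leading beta gene, went from 650.4 ± 77.2 to 731 ± 115 (log2 0.16 ± 0.132, FDR = 0.373).

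Despite their symbols, most of the Cacng genes encode transmembrane AMPA receptor regulatory proteins, which bring AMPA receptors to the surface and slow their closing. Cacng4 had 2192, 2069, 2314 and 2039 normalised reads in wild type and 1787, 1671, 1836 and 1842 in labelled knockout, a small fall without overlap (log2 -0.27 ± 0.0897, FDR = 0.0384; trend subtracted log2 -0.34, FDR = 0.00599). Cacng8 rose from 527, 587, 852 and 1044 to 1211, 1092, 1106 and 1152 (log2 0.65 ± 0.182, FDR = 0.0199); its transcript has 1897 nt and 65.1% GC, and the change was near 0 with the trend subtracted (log2 0.07, FDR = 0.611). Cacng7, the highest of them per kb, had 2278, 2423, 2598 and 2689.5 and 2623, 3833, 3193 and 2696, with overlap and no call (log2 0.29 ± 0.124, FDR = 0.093), although it was called without labelled knockout 4. Cacng5 went from 555 ± 23.8 to 665 ± 57.9 (log2 0.26 ± 0.104, FDR = 0.0805). The calls ended for Cacng4 without wild type 1, 2 or 3 or labelled knockout 1, 2 or 3 (FDR = 0.0715 to 0.114) and for Cacng8 without wild type 1 or 2 or labelled knockout 1 (FDR = 0.0609 to 0.0695).

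Kainate receptor genes held the largest falls among the glutamate receptors. Grik2 (ENSMUSG00000056073, chromosome 10, 49094833 to 49788766, minus strand) had 680.2, 532, 547 and 428 normalised reads in wild type and 266, 206, 254 and 265 in labelled knockout. That is 2.21-fold lower, with the highest labelled-knockout library far below the lowest wild-type one (log2 -1.13 ± 0.149, FDR = 0.000968, 95% interval -1.45 to -0.81). Grik1 (ENSMUSG00000022935, chromosome 16, 87895900 to 88290265, minus strand) had 126, 116, 102 and 86.2 and 49.1, 67.4, 54.0 and 38.2, 2.06-fold lower and also without overlap (log2 -1.05 ± 0.206, FDR = 0.00642). Both stayed called with the trend subtracted (Grik2 log2 -0.58, FDR = 0.00261; Grik1 log2 -0.97, FDR = 0.00445) and without each library in turn. Grik3 was not called as deposited (log2 -0.02) or with the trend subtracted (log2 0.31, FDR = 0.115). It was called higher with the slope covariate (log2 0.80, FDR = 0.0288). Without the 4 libraries of steepest slope it was also called higher (log2 0.49, FDR = 0.0211). The products of Grik1 to Grik3 form channels on their own. The high-affinity subunits encoded by Grik4 and Grik5 need one of those as a partner. Grik4 fell from 131 ± 19.4 to 90.1 ± 8.98 (log2 -0.52 ± 0.159, FDR = 0.0279; trend subtracted log2 -0.31, FDR = 0.232), while Grik5, by far the highest of the family, rose from 2131, 2029, 2579.8 and 2752 to 3412, 2669, 3118 and 2856 (log2 0.35 ± 0.121, FDR = 0.0451; trend subtracted log2 0.21, FDR = 0.0631). Grik5 groups overlapped only through labelled knockout 2. The calls ended for Grik4 without wild type 2 or 3 or labelled knockout 1 or 3 (FDR = 0.0636 to 0.0826) and for Grik5 without wild type 1, 2 or 3 or labelled knockout 1 or 3 (FDR = 0.0524 to 0.147).

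Both AMPA receptor genes that fell lost the call with the trend subtracted. Gria2, the highest glutamate receptor gene per kb, and one whose product makes the receptor nearly impermeable to calcium after RNA editing, had 8788, 7814, 6694 and 5706 normalised reads in wild type and 4477, 4067, 5109.9 and 6591 in labelled knockout, with labelled knockout 4 above wild type 4 (log2 -0.52 ± 0.162, FDR = 0.0297). Its transcript has 10371 nt, and with the trend subtracted the change was on the other side of 0 (log2 0.07, FDR = 0.527). Gria3 fell from 2538, 2193, 1971 and 1911 to 1345, 1122, 1571 and 1833 without overlap (log2 -0.57 ± 0.147, FDR = 0.0154; trend subtracted log2 -0.23, FDR = 0.116). Gria4 went the other way: it had 486, 468, 369 and 388 and 469.8, 483, 586 and 627, not called as deposited (log2 0.34 ± 0.136, FDR = 0.0768) but called higher with the trend subtracted (log2 0.64, FDR = 0.000373), with the slope covariate (log2 0.78, FDR = 0.0139) and without the 4 libraries of steepest slope (log2 0.68, FDR = 7.01e-05). Gria1 was called in neither fit (log2 -0.18 ± 0.11, FDR = 0.24). The Gria2 call ended without wild type 1 or 2 or labelled knockout 1, 2 or 3 (FDR = 0.0553 to 0.0941) and the Gria3 call without wild type 1 or labelled knockout 1 (FDR = 0.0523 to 0.0555).

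NMDA receptors need glycine or serine as well as glutamate. Of 7 genes only Grin2a was called as deposited: it had 269.9, 228, 239.6 and 196 normalised reads in wild type and 120.3, 143, 112 and 142 in labelled knockout, 1.8-fold lower without overlap (log2 -0.84 ± 0.147, FDR = 0.00415), and the call held without each library in turn. Its annotated transcript is among the longest of the members (14634 nt), and its call ended with the trend subtracted (log2 -0.24, FDR = 0.279) but not without the 4 libraries of steepest slope (log2 -0.78, FDR = 0.00186). Grin1, the subunit gene that every NMDA receptor needs, went from 147 ± 25.4 to 134 ± 26.5 (log2 -0.14 ± 0.188, FDR = 0.597). Grin3a, the leading NMDA gene, had 1757 ± 182 and 1643 ± 227, and was called higher only with the trend subtracted (log2 0.28, FDR = 0.0374). Grin2c was called lower only there (log2 -0.34, FDR = 0.0323, against log2 -0.28 ± 0.13, FDR = 0.115). For Grin3b, 32.1% of exon bases overlap the far more abundant Tmem259 on the other strand, so its reads are uncertain.

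As a share of all normalised reads, the 123 genes took 0.371 to 0.401% in the wild-type libraries and 0.294 to 0.387% in those labelled knockout. Potassium genes took 0.198 ± 0.00636% and 0.172 ± 0.0211%, and glutamate receptor genes 0.0945 ± 0.00858% and 0.0750 ± 0.0121% (SD, n = 4 each). The calcium genes took 0.0771 ± 0.00250% and 0.0728 ± 0.00693%, and sodium channel genes 0.0143 ± 0.000795% and 0.0139 ± 0.00125%. Labelled knockout 1 and 2 had the lowest shares of the potassium, calcium and glutamate classes, and labelled knockout 4 lay within or above the wild-type range of all 4 classes.

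Several members are neighbours in the genome. On chromosome 3 of mm10, Kcna3 (107036169 to 107038070) lies 63.1 kb from Kcna2 (107101146 to 107115005) and 400.2 kb from Kcnc4, and as deposited the 3 genes fell, were not called and rose (log2 -1.83, 0.01 and 0.57). On chromosome 6, Kcna1 (126640397 to 126646384) and Kcna6 (126708329 to 126740674) were at log2 -1.05 and 0.38, Kcna1 without a call unless labelled knockout 4 was left out. On chromosome 2, Scn1a (66270778 to 66440840) and Scn7a both fell as deposited, while Scn2a and Scn3a further along were not called. Cacna2d3 and Cacna1d, 318 kb apart on chromosome 14, fell in both fits.

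The rest of the pathway was counted the same way. Of 31 auxiliary and scaffold genes of glutamate receptors, 2 rose and 8 fell (median log2 fold change -0.21), and 3 were called higher and 4 lower with the trend subtracted (median -0.082). Over all genes 14.8% were called in each direction as deposited, and 10.5% higher and 7.86% lower after subtraction. Nptx1, a neuronal pentraxin that clusters AMPA receptors, fell from 12629 ± 564 to 6964 ± 852 normalised reads (log2 -0.87, FDR = 0.000635; trend subtracted log2 -0.76, FDR = 2.13e-05), and Neto1, a kainate receptor auxiliary subunit gene, fell from 1958 ± 408 to 1106 ± 163 (log2 -0.81, FDR = 0.00568; trend subtracted log2 -0.30, FDR = 0.0182). The AMPA receptor auxiliary gene Cnih3 rose from 125 ± 14.6 to 241 ± 18.7 (log2 0.95, FDR = 0.0018; trend subtracted log2 0.78, FDR = 0.000668). Of 7 metabotropic and delta receptor genes, 1 rose and 2 fell (median -0.17), against 1 called higher and 1 lower after subtraction (median 0.072), with Grm3 going from 324 ± 56.7 to 164 ± 18.4 (log2 -0.97, FDR = 0.0023; trend subtracted log2 -0.97, FDR = 0.000303). Among 16 genes of glutamate transport and synthesis 3 rose and 5 fell (median -0.013), and after subtraction 2 were called higher and 3 lower (median -0.044). Among 40 other cation channel genes 3 rose and 10 fell (median -0.091), and after subtraction 3 were called higher and 8 lower (median -0.12). The sodium leak channel gene Nalcn fell from 282 ± 50.5 to 126 ± 30.7 (log2 -1.16, FDR = 0.0027; trend subtracted log2 -0.75, FDR = 0.0028), and so did Unc79 of the same channel complex (log2 -1.01, FDR = 0.00367; trend subtracted log2 -0.61, FDR = 0.00111). Unc80 of that complex also fell (log2 -0.86, FDR = 0.0115) but lost the call with the trend subtracted (log2 -0.31, FDR = 0.175), while Fam155a, another of its genes, rose from 31.5 ± 5.31 to 68.5 ± 8.94 (log2 1.10, FDR = 0.00544; trend subtracted log2 1.08, FDR = 0.00277). Of 18 pump and exchanger genes 1 rose and 8 fell (median -0.33), and with the trend subtracted 3 were called higher and 5 lower (median -0.09). Of 19 anchoring genes 3 rose and 5 fell (median -0.34), and after subtraction 2 were called higher and 3 lower (median -0.029). Ank3, the ankyrin that gathers sodium and Kcnq channels at the axon initial segment, fell from 2597 ± 227 to 1005 ± 341 (log2 -1.42, FDR = 0.000968; trend subtracted log2 -0.99, FDR = 7.71e-05). Dpp10, which encodes an auxiliary subunit of Kcnd channels, rose from 49.0 ± 3.30 to 88.5 ± 13.4 (log2 0.83, FDR = 0.00838; trend subtracted log2 1.51, FDR = 0.000203), and its relative Dpp6 fell from 630.1 ± 35.7 to 415 ± 36.3 (log2 -0.60, FDR = 0.00455; trend subtracted log2 -0.49, FDR = 0.00227). The genes of these lists named here, and the members named above although called in neither fit, were chosen after their values were seen.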

How the data were processed

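Poly(A) RNA of 8 neurosphere libraries, 4 of each labelled genotype, was sequenced. The deposited table gives a signal per gene, which the authors made by dividing read counts by 1 size factor per library: whole reads were recovered from 100% of values (tolerance 1e-04). The submitters' processing notes name fastp 0.23.4, STAR 2.7.1a, DESeq2 1.38.3 and mm10, with no roles; no source here gives the counter or its use of strand. Of 15602 rows, 64 repeats were dropped. The lowest gene total was 11 reads, so a filter had preceded deposit.

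Because the values were not raw counts, limma-trend (limma 3.58.1, robust, two-sided) was run on log2(value + 1), with Benjamini-Hochberg adjustment. A loess trend (span 0.3) on transcript length and GC (GENCODE M21) was subtracted per library in a second fit. Other fits used edgeR 4.0.16 and DESeq2 1.42.0 on recovered reads, where edgeR called 4705 of 13313 genes, other scalings, a pseudocount of 0.1, a minimum mean of 10, the slope covariate, replicates 3 and 4 only, a replicate block and leaving out each library. The scripts were tested on simulated data.

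Named were members called in either of the first 2 fits and the 3 highest per kb of each class. Some members that this rule names are not reported here. Members and lists were chosen with earlier results of these data known. Promoters came from RefSeq (GRCm38.p6).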

Additional observations from a re-analysis of the deposited data

Results flagged for a closer look

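Of 98 groups of 4 libraries tested, 2 for each of 49 named genes, 4 held a library set far from the other 3 by Dixon's criterion, which chance meets in about 1 group in 20. Cacna1b had 329.7 normalised reads in labelled knockout 4, against 197 to 219 in the other labelled-knockout libraries. Kcnt1 had 155 there, against 112 to 118. Kcnip1 had 498 in wild type 1, against 574 to 575 in the other wild-type libraries, and Kcnh5 had 17.7, against 9.0 to 9.69.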

How the results depend on the processing

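Of the 49 named genes, the direction and the side of the threshold held for at least 47 under each of limma-trend with TMM scaling, edgeR, DESeq2, limma-voom, a pseudocount of 0.1 and a minimum mean of 10, where up to 1 gene was not tested. With library size only, 45 of 49 held, 7 members were called higher, and Kcna2 lay at -0.051. With the trend subtracted, 2860 genes of all were called, with 15 members lower. In both directions together, 5 calcium and 2 sodium genes were called. Signs turned there for Cacng7 (-0.044), Cacna1c (0.00017), Gria2 (0.070), Grin3a (0.28), Kcnc1 (0.037) and Scn3b (0.023). With the slope covariate, 170 genes were called, with 4 members higher and 0 lower: 2 potassium, 0 calcium, 0 sodium and 2 glutamate receptor genes. Signs turned for Cacna1c (0.14), Gria2 (0.12), Gria3 (0.0062), Grin3a (0.20), Kcnj10 (0.010), Kcnc1 (0.034), Scn3b (0.10) and Scn1a (0.025). The cause of these changes was not tested. Replicates 3 and 4 alone gave 1422 genes, with 7 members higher and 14 lower (11 potassium, 2 calcium and 2 sodium genes), and Grin3a at 0.14 and Scn3b at 0.036; this fit has fewer samples.

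Without each library in turn, all genes called ranged from 1884 to 5861, members higher from 5 to 12 and lower from 12 to 35, and potassium genes from 10 to 22, calcium from 2 to 11, sodium from 2 to 7 and glutamate from 3 to 7. Kcna2 was at -0.06 when wild type 3 was left out, -0.07 when wild type 4 was and -0.11 when labelled knockout 4 was. Same-numbered libraries correlated at -0.33, -0.13, -0.19 and -0.28 in their deviations from group means, which gives no sign of pairing by number. Differences such as the length slope also enter these correlations, so they cannot exclude a shared origin of same-numbered libraries. With the replicate block, 333 genes were called (2.14%), with 2 members higher and 6 lower (4 potassium, 1 calcium, 1 sodium and 2 glutamate). The block with the trend subtracted, added after seeing the data, gave 1464 genes (9.42%), with 9 members higher and 10 lower. In both directions together these were 11 potassium, 3 calcium, 2 sodium and 3 glutamate receptor genes. The block with the trend subtracted turned the same 6 signs as the subtraction alone, with equal values. Depth limits the 23 genes with a mean under 10 reads, of which 1 was called.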
